A study of Homo sapiens with 28 samples.

Results

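The response of control PC3 cells to hypoxia was measured by RNA-Seq in 4 libraries, of 28 samples in the study. They are the libraries of PC3 cells transfected with a control siRNA (siCtrl), 2 kept in normoxia and 2 in a hypoxia chamber at 0.2% oxygen. The deposited values are RPKM, read counts scaled to the length of the gene and to the mapped reads of the library. A gene entered the comparison if it reached 1 RPKM in at least 2 of the 8 PC3 libraries, which 12214 of 19662 gene symbols did. The other 4 PC3 libraries carry siRNA against ONECUT2 (siOC2), with a different siRNA in each replicate, in the same oxygen conditions. LNCaP cells with an empty vector (EV), 2 libraries in normoxia and 2 in hypoxia, gave a further control response. All 4 siCtrl libraries share the transfection, and no untransfected PC3 library entered the comparison. The sources used here do not say how long the cells were kept in hypoxia, nor whether the 2 libraries of a group came from separate cultures, so that the p-values measure only the spread between these libraries, which may be technical. With 2 libraries against 2, an exact permutation test cannot give a 2-sided p below 0.333, so that every p here comes from a model fitted across all genes.

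PC3 is a human prostate cancer cell line derived from a bone metastasis. It grows without androgen, and is commonly used as an aggressive model. The markers of the line were checked in the siCtrl libraries. The epithelial keratin KRT8 had 70 and 69.5 RPKM in normoxia and 75 and 66.9 in hypoxia, and KRT18, KRT19, KRT7 and EPCAM were present in every library. KLK3, the androgen-driven gene of prostate-specific antigen, was listed at 0 in all 4 libraries. Of 11 markers of blood, endothelial and stromal cells in the table, 2 (COL1A1 and ACTA2) reached the level for testing and neither was called. Read depth, judged by how finely the low RPKM of a library are spaced, was uneven: relative to normoxia library 2, it was 0.418 in normoxia library 1, 0.971 in hypoxia library 1 and 0.382 in hypoxia library 2. Each condition thus has a deep and a shallow library, and low values are least precise in the shallow ones. Between 15 and 25 of the tested genes were listed at exactly 0 in each siCtrl library. HSPA8, for example, was listed at 0 in normoxia library 2 and at 615 RPKM or more in the other 3, so that an exact 0 is not read as absence.

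Cells sense oxygen through prolyl hydroxylases, which use it to mark the alpha subunits of the hypoxia-inducible factors (HIF) for destruction by the VHL complex. When oxygen falls, HIF1A and EPAS1 proteins persist, pair with ARNT and bind short sites with the core ACGTG or GCGTG. Their known targets move glucose into glycolysis, keep pyruvate out of mitochondria, export acid, remodel the matrix and signal for vessels. Many of the enzymes they raise are themselves oxygen sensors, so the pathway carries its own brake.

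Hypoxia induced 272 genes and lowered 199 in control PC3 cells. After upper quartile scaling the counts were 264 and 256, so that the induced share of the calls was 50.8% in place of 57.7%. Genes were called with limma on log2(RPKM + 0.1), where the fold change exceeded 2 and the unadjusted p was below 0.05. The calls made up 2.23% of all genes tested for the induced and 1.63% for the lowered genes. At an adjusted p below 0.05 (limma, Benjamini-Hochberg), 33 induced genes (0.27%) and 0 lowered genes (0%) passed. An unadjusted p below 0.05 was found for 901 genes, or 7.38%, in either direction. These p-values use the spread of all 8 PC3 libraries, and the siOC2 replicates differ in their siRNA. With the siRNA as a term for the siOC2 libraries, an alternative chosen after seeing the data, 371 genes were induced and 382 lowered, among them all 272 and all 199, and 271 and 130 passed the adjusted p in limma. The induced genes had a median log2 fold change of 1.56 (quartiles 1.25 and 2.31), and 84 of them rose more than 4-fold, 29 more than 8-fold and 9 more than 16-fold. Among the lowered genes the median was -1.31 (quartiles -1.58 and -1.12), with 21 past 4-fold and 3 past 8-fold. The median over all genes tested was -0.07, and 43.8% of them had a log2 fold change above 0. In all 272 induced and all 199 lowered genes the hypoxia and normoxia libraries did not overlap. Over all genes tested, both hypoxia libraries lay above both normoxia libraries in 22.1%, and below them in 32.9%. The lowered gene closest to the limit was MPV17L, at a log2 fold change of -1.0, and the nearest gene outside it, TMEM216, stood at the same rounded value. The nearest gene outside the limit for induction was AL035252.1, at 1.0.

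**Figure D1:**
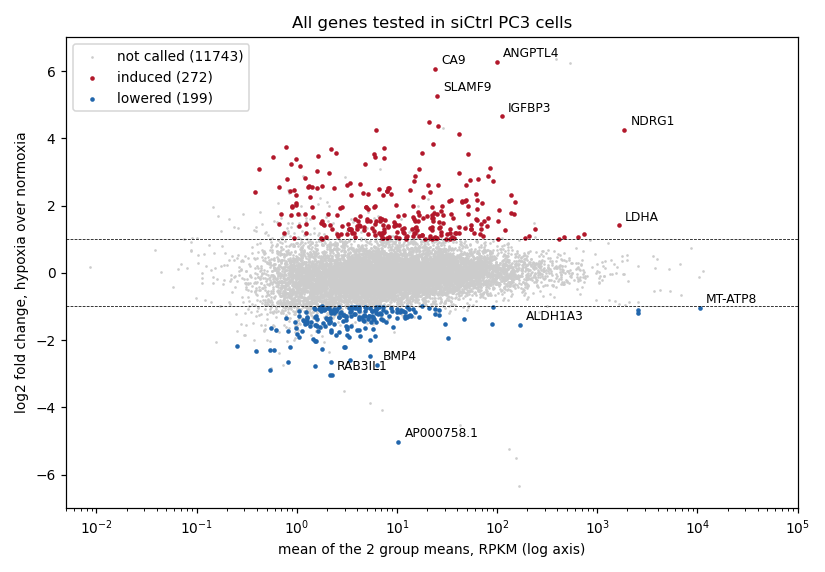
Log2 fold change of hypoxia over normoxia (limma, y axis) against the mean RPKM of both conditions (x axis, log scale) for the 12214 genes tested in siCtrl PC3 cells. Red points are the 272 induced and blue points the 199 lowered genes, dashed lines mark a fold change of 2, and grey points far from 0 at high levels are genes listed at exactly 0 in a library, such as HSPA8.

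Induced genes included very abundant transcripts, and fewer of the lowered genes were abundant. The median level of the induced genes was 4.58 RPKM in normoxia and 15.7 RPKM in hypoxia, against 5.02 and 1.76 RPKM for the lowered genes. In normoxia the 2 sets were thus alike. Over all genes tested, the median level in the higher of the 2 conditions was 9.09 RPKM. Of the induced genes, 169 had a mean of 10 RPKM or more in hypoxia, and 30 had 100 RPKM or more. Of the lowered genes, 43 had a mean of 10 RPKM or more in normoxia, and 6 had 100 RPKM or more. Together, the induced genes held 1.15% and 1.2% of all RPKM in the normoxia libraries and 4.12% and 3.93% in the hypoxia libraries. The lowered genes, among them 3 abundant mitochondrial transcripts, held 4.2% and 5.86% in normoxia and 2.62% and 2.02% in hypoxia. In 41 induced genes both normoxia libraries were below 1 RPKM and both hypoxia libraries at or above it, and 35 lowered genes did the reverse.

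The 12 induced genes with the largest fold changes, chosen by a rule on size and on libraries that do not overlap, include genes for secreted factors, surface receptors, a surface enzyme and a channel subunit. ANGPTL4 (chr19:8428173-8439254, plus strand, GRCh37), a secreted inhibitor of lipoprotein lipase, had 3.22 and 1.87 RPKM in normoxia and 202 and 192 RPKM in hypoxia. Both hypoxia libraries stood far above both normoxia libraries, a 77-fold change (log2 fold change 6.27, SE 0.39, limma adjusted p = 0.000998). CA9 (chr9:35673925-35681156, plus strand), the surface carbonic anhydrase that acidifies the medium of hypoxic cells, went from 0.938 and 0.386 RPKM to 50 and 45.1 RPKM. It was near or below 1 RPKM in normoxia, and its log2 fold change was 6.07 (SE 0.54, limma adjusted p = 0.00515). SLAMF9 (chr1:159921282-159924027, minus strand), an immunoglobulin-type receptor of the SLAM family, rose from 0.957 and 1.42 RPKM to 46.1 and 51.4 RPKM, or by 5.27 on the log2 scale (SE 0.32, limma adjusted p = 0.000998).

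Growth factor and peptide signals came next. IGFBP3 (chr7:45951844-45961473, minus strand), the main carrier of insulin-like growth factors in plasma, had 7.64 and 9.31 RPKM in normoxia and 244 and 188 RPKM in hypoxia (log2 fold change 4.65, SE 0.66, limma adjusted p = 0.0357). ACKR3 (chr2:237476430-237490997, plus strand), an atypical receptor that takes up the chemokine CXCL12, had 1.28 and 2.23 RPKM in normoxia and 36.6 and 44 RPKM in hypoxia (log2 fold change 4.49, SE 0.39, limma adjusted p = 0.00515). ADM (chr11:10326620-10328944, plus strand), which encodes the vasodilator adrenomedullin, had 2.36 and 2.11 RPKM in normoxia and 50.1 and 47.1 RPKM in hypoxia (log2 fold change 4.38, SE 0.41, limma adjusted p = 0.00531). In each of these genes the replicates of a condition lay close together beside a gap of more than 8-fold between the conditions.

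NDRG1, a stress-response gene that restrains growth, was the most abundant of the induced genes. It had 176 and 192 RPKM in normoxia and 3713 and 3360 RPKM in hypoxia, a 19.2-fold change (log2 fold change 4.26, SE 0.67). Its limma adjusted p was 0.0572, and 1.78e-06 with the siRNA term. C10orf10, also named DEPP, had 3.72 and 5.28 RPKM in normoxia against 81.7 and 77.6 RPKM in hypoxia (log2 fold change 4.14, limma adjusted p = 0.00515). TREM1 (chr6:41235664-41254420, minus strand), a receptor that amplifies inflammatory signals in myeloid cells, had 2.19 and 3.84 RPKM against 43.9 and 41.4 RPKM (log2 fold change 3.83, limma adjusted p = 0.0098). SCNN1G (chr16:23194066-23228204, plus strand), the gamma subunit of the epithelial sodium channel, had 1.1 and 0.878 RPKM against 12.5 and 15.5 RPKM (log2 fold change 3.70, limma adjusted p = 0.0098). NRN1 (chr6:5998232-6007838, minus strand), which encodes the neurite growth factor neuritin, had 0.252 and 0.22 RPKM against 4.38 and 3.98 RPKM (log2 fold change 3.67, limma adjusted p = 0.0357). TMEM45A (chr3:100211463-100296288, plus strand), a transmembrane protein gene that is among the 8 genes with the lowest adjusted p, had 17 and 18 RPKM against 158 and 145 RPKM (log2 fold change 3.11, SE 0.23, limma adjusted p = 0.00266).

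MTRNR2L11 and MTRNR2L3, nuclear copies of the mitochondrial ribosomal RNA region that encodes humanin, also met these rules. MTRNR2L11 had 0.345 and 0.756 RPKM in normoxia and 13.4 and 10.3 RPKM in hypoxia (log2 fold change 4.26), and MTRNR2L3 had 2.18 and 3.32 RPKM and then 36.5 and 29.4 RPKM (log2 fold change 3.56). Of 13 copies, 11 were tested, all 11 had a log2 fold change above 0, 8 did not overlap and 8 were called. The median log2 fold change was 2.62, in a list made after the data were seen. In EV LNCaP cells 2 copies were tested and both were called lower (median -1.86). The copies are nearly identical to each other and to the mitochondrial genome, so reads can be split among them by the counting, and their values are uncertain. MTRNR2L12 was listed at 21825 RPKM in normoxia library 1 and 23750 RPKM in hypoxia library 2 but at 0 in the other siCtrl libraries. Its direction therefore rests on exact 0 values, which are not read as absence. MTRNR2L8, at 3302 and 3854 RPKM in normoxia and 4270 and 3572 RPKM in hypoxia, was not called.

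The promoters of 5 of these induced genes and of 2 lowered genes are shown because the HIF core can be looked for in them. Each is 300 bases in the direction of the gene, 250 before and 50 after its start, from RefSeq on GRCh38.p14, and capitals mark ACGTG or GCGTG on either strand (as CACGT or CACGC where the other strand holds it).
ANGPTL4 promoter, chr19:8363905-8364204, plus strand: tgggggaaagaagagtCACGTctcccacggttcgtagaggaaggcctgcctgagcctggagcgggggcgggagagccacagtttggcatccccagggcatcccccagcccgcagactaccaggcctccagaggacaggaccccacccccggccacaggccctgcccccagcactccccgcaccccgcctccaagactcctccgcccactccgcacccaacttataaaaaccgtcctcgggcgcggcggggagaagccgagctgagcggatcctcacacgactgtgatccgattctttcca
CA9 promoter, chr9:35673678-35673977, plus strand: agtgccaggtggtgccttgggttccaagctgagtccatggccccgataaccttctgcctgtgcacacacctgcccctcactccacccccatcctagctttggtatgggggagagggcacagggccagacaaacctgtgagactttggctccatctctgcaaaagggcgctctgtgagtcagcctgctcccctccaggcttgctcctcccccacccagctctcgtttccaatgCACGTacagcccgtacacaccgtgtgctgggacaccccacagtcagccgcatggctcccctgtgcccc
SLAMF9 promoter, chr1:159954188-159954487, minus strand: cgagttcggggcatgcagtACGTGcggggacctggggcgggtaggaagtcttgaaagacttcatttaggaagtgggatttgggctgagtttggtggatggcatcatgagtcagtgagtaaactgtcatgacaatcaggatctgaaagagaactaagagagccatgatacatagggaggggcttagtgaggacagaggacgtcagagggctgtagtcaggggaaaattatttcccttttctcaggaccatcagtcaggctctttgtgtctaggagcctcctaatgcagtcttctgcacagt
IGFBP3 promoter, chr7:45921223-45921522, minus strand: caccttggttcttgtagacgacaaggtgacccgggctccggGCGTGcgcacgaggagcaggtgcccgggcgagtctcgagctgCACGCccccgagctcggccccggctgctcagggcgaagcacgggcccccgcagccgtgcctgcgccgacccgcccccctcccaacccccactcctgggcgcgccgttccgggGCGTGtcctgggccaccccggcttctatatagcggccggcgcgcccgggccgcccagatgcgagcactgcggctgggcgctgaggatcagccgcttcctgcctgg
ADM promoter, chr11:10304823-10305122, plus strand: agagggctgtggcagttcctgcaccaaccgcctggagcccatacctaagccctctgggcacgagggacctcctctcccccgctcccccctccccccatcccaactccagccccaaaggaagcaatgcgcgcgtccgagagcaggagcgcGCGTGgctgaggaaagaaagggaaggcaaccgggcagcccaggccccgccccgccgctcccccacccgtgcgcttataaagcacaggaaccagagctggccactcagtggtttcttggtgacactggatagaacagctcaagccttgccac
RAB3IL1 promoter, chr11:61920235-61920534, minus strand: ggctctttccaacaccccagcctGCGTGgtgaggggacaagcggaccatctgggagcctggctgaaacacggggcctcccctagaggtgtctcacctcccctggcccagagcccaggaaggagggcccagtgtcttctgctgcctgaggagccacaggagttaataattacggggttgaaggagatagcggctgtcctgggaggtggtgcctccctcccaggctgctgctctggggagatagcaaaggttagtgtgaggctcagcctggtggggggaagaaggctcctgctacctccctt
CYP1A1 promoter, chr15:74725479-74725778, minus strand: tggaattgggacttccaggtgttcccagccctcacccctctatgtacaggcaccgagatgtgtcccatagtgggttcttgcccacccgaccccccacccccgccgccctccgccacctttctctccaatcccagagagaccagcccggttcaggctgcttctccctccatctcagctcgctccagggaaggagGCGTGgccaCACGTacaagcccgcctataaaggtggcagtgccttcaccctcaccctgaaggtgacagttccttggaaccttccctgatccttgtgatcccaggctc
ANGPTL4, CA9 and SLAMF9 each held 1 ACGTG in this window, IGFBP3 held 3 GCGTG and ADM held 1 GCGTG. Among the lowered genes, RAB3IL1 held 1 GCGTG, and CYP1A1 held 1 of each core. Across the promoters of all 9972 genes tested that had an entry, 26.9% held ACGTG on either strand. The share was 35% of the 206 induced genes with an entry, 41.8% of the 55 that rose more than 4-fold and 30.3% of 152 lowered genes. For GCGTG the shares were 50.8% of all, 42.7% of induced, 45.5% of those past 4-fold and 52.6% of lowered genes. CACGTG, which contains ACGTG on both strands, was found in 10.2%, 15%, 18.2% and 15.8% of them. The median GC content was 65.3% for all and 67.3% for induced promoters. These are counts of letters in a short window and no test was made of them.

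Among the oxygen-sensing genes, the hydroxylases EGLN1 and EGLN3 rose, together with CITED2 and EPAS1. EGLN1, the main HIF prolyl hydroxylase, had 11.8 and 14.7 RPKM in normoxia and 50.9 and 37.2 RPKM in hypoxia (log2 fold change 1.72, SE 0.27, limma adjusted p = 0.0572, or 0.000811 with the siRNA term). EGLN3, a further prolyl hydroxylase, had 1.31 and 1.8 RPKM and then 3.69 and 3.42 RPKM (log2 fold change 1.16, limma adjusted p = 0.54, or 0.0855 with the siRNA term). EGLN2 was not called at 5.65 and 6.76 RPKM against 5.68 and 4.38 RPKM. CITED2, which competes with HIF for its coactivators, had 9.36 and 9.04 RPKM in normoxia and 23.7 and 20.7 RPKM in hypoxia (log2 fold change 1.26, limma adjusted p = 0.153, or 0.00944 with the siRNA term). EPAS1, the gene of HIF2 alpha, had 21.2 and 23.3 RPKM and then 52.8 and 38.4 RPKM (log2 fold change 1.02, SE 0.40, limma adjusted p = 0.611, or 0.0297 with the siRNA term). HIF1A stood at 365 and 480 RPKM in normoxia and at 241 and 185 RPKM in hypoxia, without overlap, but its log2 fold change of -0.99 (SE 0.30) fell just short of the limit of fold change (limma adjusted p = 0.428, or 0.0445 with the siRNA term). VHL, ARNT and the asparaginyl hydroxylase gene HIF1AN were not called, with log2 fold changes between -0.05 and 0.10. Of the 11 genes of this list tested, 4 were called higher and 0 lower, and the list median of -0.03 was 0.56 with a filter of 5 RPKM and 0.01, 0.14 and 0.08 without hypoxia library 1, hypoxia library 2 or normoxia library 2.

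Glucose uptake and glycolysis rose along most of the pathway. Of 23 genes tested, 15 were called higher and 0 lower, 22 had a log2 fold change above 0, and the median was 1.20 against -0.07 over all genes. Over all genes tested, 2.23% were called higher, 1.63% lower and 43.8% were above 0, and the counts of every list are to be read beside these shares. At the entry, the glucose transporter SLC2A1 had 16.3 and 17.3 RPKM in normoxia and 70.9 and 73.3 RPKM in hypoxia (log2 fold change 2.1), and SLC2A3 had 0.607 and 0.264 RPKM and then 1.44 and 1.79 RPKM (log2 fold change 1.75). The hexokinases HK1 and HK2, which trap glucose in the cell, had log2 fold changes of 1.19 and 1.20. PFKFB4, which makes the activator of phosphofructokinase, had 13.6 RPKM in both normoxia libraries and 91.1 and 76 RPKM in hypoxia, the largest change of this list (log2 fold change 2.60, SE 0.25, limma adjusted p = 0.00621). Its relative PFKFB3 had a log2 fold change of 1.65. Phosphofructokinase itself differed by isoform: the platelet form PFKP had 44 and 43.4 RPKM and then 127 and 102 RPKM (log2 fold change 1.38), the liver form PFKL had a log2 fold change of 0.89 and was not called, and the muscle form PFKM stood at 26.2 and 30.3 RPKM and then 21.9 and 22.3 RPKM (log2 fold change -0.35, not called).

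Further down, ALDOC, an aldolase, had 2.83 and 2.05 RPKM in normoxia and 13.8 and 14.7 RPKM in hypoxia (log2 fold change 2.51). PGK1, the first step that yields ATP, had 22.6 and 30.7 RPKM and then 112 and 87.8 RPKM (log2 fold change 1.91, limma adjusted p = 0.0357). ENO2, the enolase also used as a marker of neuroendocrine cells, had 19.7 and 20.6 RPKM and then 106 and 98 RPKM (log2 fold change 2.33, limma adjusted p = 0.0285), and the ubiquitous enolase ENO1 went from 440 and 473 to 1110 and 939 RPKM (log2 fold change 1.16). Some of the most abundant enzymes were not called. GAPDH, often used as a reference gene, had 1545 and 1711 RPKM in normoxia and 2409 and 2303 RPKM in hypoxia (log2 fold change 0.53), and ALDOA and PKM had log2 fold changes of 0.99 and 0.89. At the exit, LDHA, which turns pyruvate into lactate, had 865 and 917 RPKM and then 2662 and 2111 RPKM (log2 fold change 1.41). PDK1, the kinase that closes the entry of pyruvate into mitochondria, had 12.2 and 10.6 RPKM and then 42.2 and 34.6 RPKM (log2 fold change 1.74). The lactate exporter SLC16A3 had 12.1 and 7.52 RPKM and then 23.6 and 20 RPKM, and its log2 fold change of 1.18 (SE 0.57) passed the test only with the siRNA term.

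**Figure D2:**
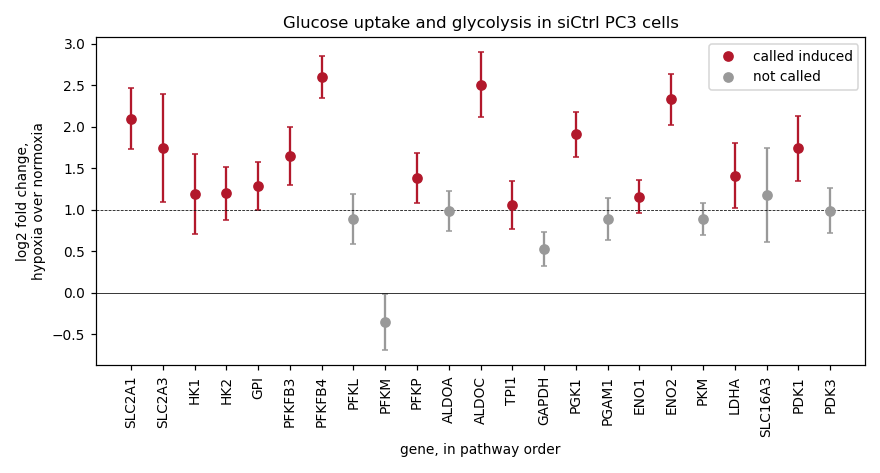
Log2 fold change of hypoxia over normoxia (y axis) with its standard error (limma) for the 23 glycolysis genes in pathway order (x axis). Red points are the 15 genes called induced, grey points those not called, and the dashed line marks a fold change of 2; PFKM, at -0.35, is the only gene of the list below 0.

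Glycogen and acid handling followed in part. Among 10 glycogen genes tested, 4 were called higher and 0 lower (median 1.11), against 2.23% and 1.63% of all genes. GBE1, the branching enzyme, had 11.8 and 12.2 RPKM in normoxia and 46.5 and 41 RPKM in hypoxia (log2 fold change 1.85). The log2 fold changes of PGM1 and UGP2, which make the glucose donor for glycogen, were 1.33 and 1.27. PYGL, the liver-type phosphorylase that breaks glycogen down, had 31.2 and 31.7 RPKM and then 82.3 and 72.5 RPKM (log2 fold change 1.29), whereas the brain type PYGB was at 27.6 and 27.5 RPKM and then 32.1 and 31.7 RPKM and was not called. Of 8 genes for pH regulation tested, 4 were above and 4 below 0 (median 0.04), and 2 were called higher and 0 lower. The calls include CA9, as given above. CA12, a relative of CA9, had 26.3 and 27.5 RPKM and then 54.2 and 47 RPKM (log2 fold change 0.91, not called).

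Of 16 secreted signals listed, 12 were tested, all 12 were higher in hypoxia and 6 were called (median 1.22). Of all genes, 43.8% were higher and 2.23% were called higher. A gene can pass the filter on level through its hypoxia libraries alone, and without that filter the list median was 0.73. The list was also chosen with earlier results of these data known. Besides ANGPTL4 and ADM, the glycoprotein hormone STC1 rose from 8.99 and 9.87 RPKM to 81.6 and 67.2 RPKM (log2 fold change 2.96, SE 0.33, limma adjusted p = 0.0126). Its relative STC2 had 12.6 and 14.9 RPKM and then 42 and 36.4 RPKM (log2 fold change 1.51). The vascular mitogen PDGFB had 3.88 and 3.77 RPKM in normoxia and 15.1 and 16.3 RPKM in hypoxia (log2 fold change 2.01), and FGF11 had a log2 fold change of 1.59. VEGFA, the best known HIF target among vessel signals, was abundant in normoxia at 138 and 170 RPKM and stood at 238 and 205 RPKM in hypoxia. The libraries did not overlap, but the log2 fold change of VEGFA was 0.53 (SE 0.59) and did not pass the test (limma adjusted p = 0.928, or 0.362 with the siRNA term).

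Genes for collagen modification, integrins and receptors formed a further induced group. Of 10 collagen hydroxylase and crosslinking genes, 3 were called higher and 0 lower (median 0.64), against 2.23% and 1.63% of all genes. LOX, which crosslinks collagen outside the cell, had 1.01 and 0.701 RPKM in normoxia and 10.9 RPKM in both hypoxia libraries (log2 fold change 3.54, SE 0.37, limma adjusted p = 0.00938). PLOD2, the lysyl hydroxylase of collagen ends, had 50.4 and 62.1 RPKM and then 286 and 204 RPKM (log2 fold change 2.11, limma adjusted p = 0.0285), and the prolyl hydroxylase subunit P4HA1 had 65 and 70.1 RPKM and then 245 and 208 RPKM (log2 fold change 1.74). All 12 genes of the receptor and adhesion list were higher in hypoxia and 5 were called (median 0.94), SLAMF9 with the largest log2 fold change (5.27). Of all genes, 43.8% were higher and 2.23% were called higher. The receptor and adhesion list was chosen with earlier results of these data known, so its counts are not independent of them. ITGB4, the integrin chain of hemidesmosomes, had 16.5 and 22.9 RPKM in normoxia and 142 and 145 RPKM in hypoxia (log2 fold change 2.88, SE 0.52). ITGA5, a chain of the fibronectin receptor, had 21.5 and 24.7 RPKM and then 75 and 81.7 RPKM (log2 fold change 1.76). CXCR4, the signalling receptor for CXCL12, had 0.241 and 0.386 RPKM and then 2.56 and 2.13 RPKM (log2 fold change 2.58), and the adhesion molecule L1CAM had a log2 fold change of 1.96. ITGB1 and CD44, at 1348 and 422 RPKM in normoxia library 1, were not called.

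Transcriptional repressors and growth-restraining genes were higher in hypoxia in all 14 cases tested, 7 of them called (median 1.23), against 43.8% and 2.23% of all genes. This list too was chosen with earlier results of these data known. BHLHE40, a repressor that also sets the circadian clock, had 15.5 and 16.6 RPKM in normoxia and 114 and 110 RPKM in hypoxia (log2 fold change 2.80, SE 0.29, limma adjusted p = 0.00836). MXI1, which opposes MYC, had 15 and 18 RPKM and then 77.2 and 68.8 RPKM (log2 fold change 2.14, limma adjusted p = 0.0285). DDIT4, an inhibitor of mTORC1 signalling, had 6.45 and 6.09 RPKM and then 30.5 and 30.2 RPKM (log2 fold change 2.26, SE 0.62). CCNG2, an atypical cyclin, had a log2 fold change of 2.32, and ARRDC3 and ZNF395 had 1.63 and 1.55. Among 10 genes of mitophagy and autophagy, the mitochondrial receptors BNIP3 and BNIP3L were called. BNIP3 had 21.9 and 25.8 RPKM in normoxia and 170 and 147 RPKM in hypoxia (log2 fold change 2.73), and BNIP3L had 14.8 and 20.4 RPKM and then 82.8 and 75.7 RPKM (log2 fold change 2.18). Of the lipid genes, HILPDA, an inhibitor of lipid droplet breakdown, had 6.83 and 9.47 RPKM and then 105 and 84.1 RPKM (log2 fold change 3.53, limma adjusted p = 0.0152), and the lipoprotein receptor VLDLR had 1.05 and 1.16 RPKM and then 6.02 and 5.74 RPKM (log2 fold change 2.32, limma adjusted p = 0.0432). These were 2 of 10 lipid genes tested. Of 16 Jumonji and TET dioxygenases, which need oxygen to remove methyl marks, 14 had a log2 fold change above 0 (43.8% of all genes did). Of them, 2 were called higher (2.23% of all genes were): KDM3A, with 16.4 and 14.7 RPKM in normoxia and 61.7 and 44.8 RPKM in hypoxia (log2 fold change 1.75), and KDM4C (log2 fold change 1.04).

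The other genes among the 33 with an adjusted p below 0.05 were looked up after their values were seen. TGFA, a ligand of the EGF receptor, had 5.17 and 6.37 RPKM in normoxia and 24.8 and 21.5 RPKM in hypoxia (log2 fold change 1.99, limma adjusted p = 0.0285). ERRFI1, an inhibitor of that receptor, had 6.54 and 7.57 RPKM and then 51.6 and 36.8 RPKM (log2 fold change 2.61, limma adjusted p = 0.0152). INSIG2, which holds back sterol synthesis, had 2.77 and 4.45 RPKM and then 29.4 and 23.6 RPKM (log2 fold change 2.87, limma adjusted p = 0.0357). ECE1, the protease that activates endothelin, had 20 and 21 RPKM and then 86.8 and 76.8 RPKM (log2 fold change 1.99, limma adjusted p = 0.0285). FAM162A, FUT11, SEC61G, MAP7D2 and TUBGCP2 had log2 fold changes of 2.31, 2.16, 1.77, 3.09 and 2.14 in that order.

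None of the 12 lowered genes with the largest fold changes under the rule had a limma adjusted p below 0.05, and 9 of them had one with the siRNA term. Of these 12 genes, 11 were below 10 RPKM in both normoxia libraries. The exception, BMP4 (chr14:54416454-54425479, minus strand), a ligand that patterns tissues, had 9.79 and 12.4 RPKM in normoxia and 1.56 and 1.6 RPKM in hypoxia, a 6.62-fold decrease (log2 fold change -2.73, SE 0.52, limma adjusted p = 0.116, or 6.79e-05 with the siRNA term). CYP1A1 (chr15:75011883-75017877, minus strand), the cytochrome P450 induced through the aryl hydrocarbon receptor, had 3.39 and 4.79 RPKM and then 0.62 and 0.253 RPKM (log2 fold change -3.04, SE 0.60, limma adjusted p = 0.134). RAB3IL1 (chr11:61664773-61687741, minus strand), which activates the vesicle GTPase RAB3A, had 4.35 and 3.5 RPKM and then 0.333 and 0.448 RPKM. Its log2 fold change of -3.04 had an SE of 1.14 (limma adjusted p = 0.585, or 0.0269 with the siRNA term). CD3EAP, a subunit of RNA polymerase I, had 8.99 and 9.3 RPKM and then 1.76 and 1.38 RPKM (log2 fold change -2.48), and it overlaps its neighbour ERCC1 on the other strand, so reads could be shared if the counting did not use strand. SAMD12 had 6.76 and 3.28 RPKM and then 1.01 and 0.859 RPKM (log2 fold change -2.22, limma adjusted p = 0.0874).

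The remaining lowered genes of this set varied in how close their libraries were. RSG1, a small GTPase of cilium assembly, had 3.05 and 2.39 RPKM in normoxia and 0.19 and 0.482 RPKM in hypoxia (log2 fold change -2.77), and ANKRD1, a known target of the YAP coactivator, had 4.68 and 5.34 RPKM and then 1.17 and 0.841 RPKM (log2 fold change -2.22). As the rule requires, the conditions did not overlap in any gene of this set. SBP1 had 1.68 and 0.411 RPKM and then 0.277 RPKM and a value near 0 (log2 fold change -2.30). ZCCHC18 had 6.9 and 1.15 RPKM in normoxia and 0.544 and 0.244 RPKM in hypoxia, so its normoxia libraries differed from each other more than the nearer of them did from hypoxia library 1. MYO18A had 6.01 and 5.23 RPKM and then 1.88 and 0.359 RPKM, and its log2 fold change of -2.58 was -1.52 without hypoxia library 2 and -3.64 without hypoxia library 1, called in both. SOX6 had 1.04 and 1.78 RPKM and then 0.535 and 0.0562 RPKM. MSH5-SAPCD1, a readthrough transcript that shares its exons with MSH5, had 1.35 and 1.48 RPKM and then 0.484 and 0.000642 RPKM. The calls of RAB3IL1, RSG1 and ANKRD1 were lost when any of the 4 libraries was left out, with log2 fold changes still between -3.27 and -2.01. The calls of MSH5-SAPCD1, SBP1, SOX6 and ZCCHC18 were lost without hypoxia library 2, the shallowest of the 4, at -1.37, -1.34, -1.20 and -2.20. They were also lost without normoxia library 1 for MSH5-SAPCD1 (-2.70), SBP1 (-1.40) and ZCCHC18 (-1.41), and without normoxia library 2 for MSH5-SAPCD1 (-2.58) and SOX6 (-1.85). AP000758.1, a clone-named gene outside the rule, had a larger decrease than any of these (log2 fold change -5.02), from 32.5 and 6.9 RPKM to 2.05 RPKM and a value near 0.

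Retinoic acid metabolism held the most abundant lowered gene of the nuclear genome. ALDH1A3, the dehydrogenase that makes retinoic acid, had 250 and 257 RPKM in normoxia and 93.3 and 81.2 RPKM in hypoxia, a log2 fold change of -1.54 (SE 0.30, limma adjusted p = 0.134). RDH10, which supplies its substrate retinal, had 37.7 and 51.7 RPKM and then 16.4 and 14.1 RPKM (log2 fold change -1.53). CYP26A1, which degrades retinoic acid, moved the other way, from 0.211 and 0.248 RPKM to 2.36 and 2.07 RPKM (log2 fold change 2.81, SE 0.82). In this list of 8 genes, made after the data were seen, 7 were tested, 1 was called higher and 3 lower, the third being RDH13 (log2 fold change -2.01). CRABP2, which carries retinoic acid to its receptors and was also looked up afterwards, rose from 137 and 139 RPKM to 372 and 308 RPKM (log2 fold change 1.29).

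Calls went both ways in a list around BMP ligands and antagonists, likewise made afterwards, with 2 of 9 genes called higher and 1 lower. In it the antagonist NOG had 12.1 and 15.2 RPKM in normoxia and 113 and 73.8 RPKM in hypoxia (log2 fold change 2.75, SE 0.45, limma adjusted p = 0.0671), opposite to the ligand BMP4. INHA, the inhibin alpha subunit, was the other gene called higher (log2 fold change 2.58). It overlaps OBSL1, which was induced as well, so reads could be shared by the counting. BMP7 and BMP2 were not called, at log2 fold changes of -0.58 and 0.07. Of 5 tested genes of the aryl hydrocarbon receptor list, CYP1A1 and CYP1B1 were called lower, and CYP1B1 had 14.8 and 19.7 RPKM and then 6.68 and 6.65 RPKM (log2 fold change -1.34). The receptor gene AHR itself was not called (log2 fold change -0.06). Of 16 cytokine and chemokine genes, the monocyte attractant CCL2 had 6.27 and 8.11 RPKM and then 2.96 and 1.69 RPKM (log2 fold change -1.63), and the granulocyte factor CSF3 had a log2 fold change of -1.27. No other gene of that list was called, and with the siRNA term 1 was called higher and 3 lower. IL1B, the most abundant of that list, was at 376 and 437 RPKM and then 543 and 520 RPKM, and was not called.

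Transcripts of the mitochondrial genome had log2 fold changes below 0, while the nuclear genes of the respiratory chain had a median near that of all genes. All 13 mitochondrially encoded proteins had a log2 fold change below 0, with a median of -0.87. In 12 of them both hypoxia libraries lay below both normoxia libraries, as in 32.9% of all genes tested. Of the 13, 3 were called lower, against 1.63% of all genes. The 13 are encoded on the same genome, so these counts are not independent. MT-ATP6, a subunit of ATP synthase, had 2872 and 4240 RPKM in normoxia and 1796 and 1317 RPKM in hypoxia (log2 fold change -1.18, limma adjusted p = 0.193). MT-ATP8 and MT-ND2 were called at -1.04 and -1.10. MT-CO1, a core subunit of cytochrome oxidase, had 9194 and 12422 RPKM and then 10195 and 9298 RPKM, which overlap (log2 fold change -0.13). Mitochondrially encoded transcripts made up 13% and 16.7% of all RPKM in the normoxia libraries and 9.65% and 8.72% in the hypoxia libraries, so that both hypoxia libraries lay lower. RNA from mitochondria and from the nucleus share each library's total, and whether fewer mitochondria or less RNA in each of them underlies these values cannot be told apart in such bulk libraries. In the 29 nuclear genes of the respiratory chain tested, 0 were called by limma, 1 had an unadjusted p below 0.05, and the median was -0.03. The most abundant of them, ATP5B, had 686 and 781 RPKM and then 764 and 662 RPKM.

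Genes for making ribosomes and mitochondria tended lower without many calls. Of 22 ribosome biogenesis genes, 20 had a log2 fold change below 0 and 17 had both hypoxia libraries below both normoxia libraries, with a median of -0.37 against -0.07 over all genes, where 32.9% show such an order. POLR1B and RRP12 were called, and RRP9 and RRS1 as well with the siRNA term (log2 fold changes -1.31 and -1.32). POLR1B, the second subunit of RNA polymerase I, had 9.7 and 7.45 RPKM in normoxia and 4.82 and 2.79 RPKM in hypoxia (log2 fold change -1.19), and RRP12 had a log2 fold change of -1.12. NPM1, the most abundant of the list, had 500 and 610 RPKM and then 614 and 500 RPKM. Of 14 genes of mitochondrial biogenesis and import, 12 were below 0 and MRPS12 was called (log2 fold change -1.10). Of 18 interferon-stimulated genes, 15 were below 0 (median -0.36), and 0 were called and 0 had an unadjusted p below 0.05 in limma.

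Proliferation genes did not pass the test. Of 31 genes of replication licensing and S phase, 23 were below 0, the median was -0.24 and 0 were called by limma, with 1 at an unadjusted p below 0.05. Of 25 mitotic genes 0 were called, and 0 had such a p. The median of the mitotic list was 0.02, or -0.01 after upper-quartile scaling. MCM4, a helicase subunit, had 98.7 and 112 RPKM in normoxia and 130 and 97.6 RPKM in hypoxia, and CDK1, the kinase of mitosis, had 118 and 130 RPKM and then 147 and 132 RPKM. Calls in limma were also 0 of 20 for homologous recombination and Fanconi genes (median -0.10), 0 of 22 for sterol synthesis (median 0.09, 1 with the siRNA term) and 0 of 14 for endoplasmic reticulum chaperones (median 0.13), with 0, 1 and 1 genes at an unadjusted p below 0.05. Of 14 genes of the integrated stress response, VLDLR was called higher and the cystine transporter SLC7A11 lower, the latter from 3.37 and 2.64 RPKM to 1.65 and 1.05 RPKM (log2 fold change -1.12). SLC7A11 was also the gene called among 16 NRF2 targets. Of 4 metallothioneins tested, MT2A, at 1433 and 1957 RPKM and then 909 and 991 RPKM, was not called, and 0 of the 4 had an unadjusted p below 0.05 in limma.

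**Figure D3:**
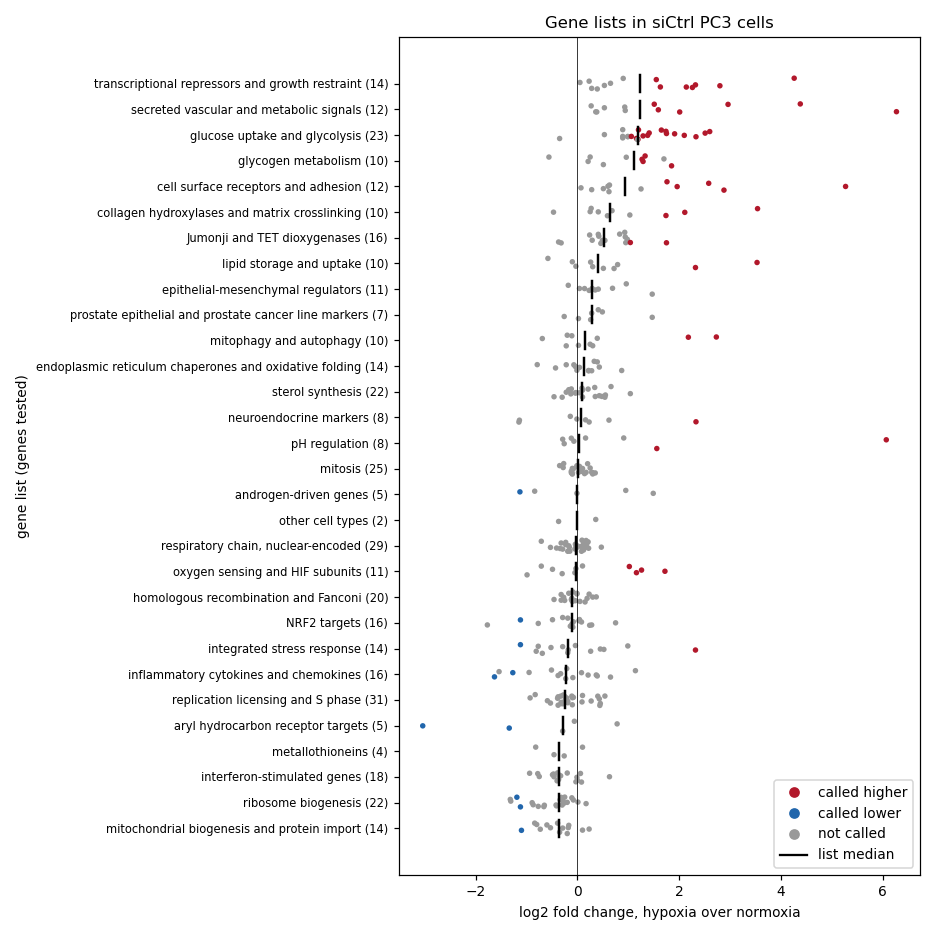
Log2 fold change of hypoxia over normoxia (x axis) for every tested gene of the 30 gene lists (y axis, number tested in brackets), ordered by median. Red points were called higher, blue points lower and grey points not called, and black bars mark list medians, from 1.23 for repressors and growth restraint to -0.37 for ribosome biogenesis and for mitochondrial biogenesis.

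Lineage markers gave few calls. Among 8 tested neuroendocrine markers, ENO2 was the gene called, which is a glycolytic enzyme as well. With the siRNA term, 1 marker was also called lower. CHGA and SYP, defining markers of neuroendocrine cells, stayed below 0.5 RPKM in all 4 libraries and were not tested. PEG10 had 67.1 and 85.1 RPKM in normoxia and 95.2 and 75.1 RPKM in hypoxia. ONECUT2 had 1.77 and 1.16 RPKM and then 0.648 and 0.55 RPKM, without overlap, but its log2 fold change of -1.14 (SE 0.65) did not pass the test (limma adjusted p = 0.791, or 0.328 with the siRNA term). Of 11 regulators of the epithelial-mesenchymal transition, 10 were above 0 (median 0.29), 0 were called by limma and 1 had an unadjusted p below 0.05. VIM, the mesenchymal filament gene, had 120 and 126 RPKM and then 353 and 328 RPKM, without overlap. Its log2 fold change of 1.47 (SE 0.69) did not pass (limma adjusted p = 0.716) but was called with the siRNA term (adjusted p = 0.00707). Among androgen-driven genes, STEAP2 was called lower (log2 fold change -1.13) among 5 genes tested. TMPRSS2, a surface protease, had 0.275 and 0.5 RPKM and then 1.43 and 1.06 RPKM, and its log2 fold change of 1.49 (SE 0.88) was called only with the siRNA term.

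Some induced genes were neighbours in the order of the tested genes along the genome. Among genes tested with a GRCh37 position, 30 of 252 induced genes had an induced gene as an adjacent tested gene (11.9%), where 4.3% of all tested genes had one. For lowered genes the values were 18 of 181 (9.94%) and 3.15%. No test was made of these shares, since neighbours can overlap or be counted from the same reads. Untested genes can lie between such neighbours, and BNIP3 and DPYSL4, for example, lie 204981 bases apart. SCNN1G and SCNN1B, the gamma and beta subunits of the sodium channel, lie 61348 bases apart on chromosome 16, and SCNN1B had 0.128 and 0.287 RPKM in normoxia and 1.62 and 1.39 RPKM in hypoxia (log2 fold change 2.43). ADM and the AMP deaminase gene AMPD3 lie 916 bases apart on chromosome 11, and AMPD3 had a log2 fold change of 1.33. SLAMF9 and the adhesion gene IGSF9 lie 5879 bases apart on chromosome 1, and IGSF9 had a log2 fold change of 1.45. PFKFB4 and UCN2, which encodes the peptide urocortin, overlap on chromosome 3, and UCN2 went from 3.39 and 4.22 RPKM to 27.2 and 24.1 RPKM (log2 fold change 2.73). STEAP1 and STEAP2, metalloreductase genes 2761 bases apart on chromosome 7, were both lowered, by log2 fold changes of -1.11 and -1.13.

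The same genes were then read in PC3 cells with siRNA against ONECUT2, whose libraries are separate but enter the same fit. In siOC2 cells hypoxia induced 135 genes (1.11%) and lowered 287 (2.35%), and the median over all genes was -0.22, with 29.5% of genes above 0. An unadjusted p below 0.05 was found for 6.71% of genes, and by adjusted p limma called 1 gene higher (0.00819%) and 0 lower. The siOC2 replicates are separate siRNAs, each used in both oxygen conditions, and same-numbered siOC2 libraries deviated together (correlation 0.618). With the siRNA as a term, 201 genes were induced and 640 lowered in siOC2 cells, 87 and 36 by adjusted p. Of the 272 genes induced in control cells, 253 had a log2 fold change above 0 in siOC2 cells, 178 had both hypoxia libraries above both normoxia libraries (7.34% of all genes did), and 100 were called induced. With the siRNA term 110 were called. The 100 are 36.8% of the control calls and 74.1% of the siOC2 calls. Of the 199 lowered genes, 182 were below 0, 129 kept the order of libraries (20.9% of all genes) and 53 were called lowered, which is 26.6% of the control and 18.5% of the siOC2 calls. None of the 471 genes was called in the opposite direction. The median log2 fold change of the control-induced genes was 1.56 in control and 0.86 in siOC2 cells, and that of the control-lowered genes -1.31 and -0.77. Genes chosen for a large change in 1 set of libraries tend to show a smaller one in another, so these medians do not compare the responses.

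The difference of the responses was tested directly. Over all genes, 85 (0.696%) had a more positive and 30 (0.246%) a more negative response in control than in siOC2 cells, by more than 2-fold and at an unadjusted p below 0.05, 126 genes (1.03%) had such a p at any fold, and 0 passed the adjustment in limma. With the siRNA term, 265 and 115 genes differed, and 3 passed the adjusted p: SLAMF9 (0.00192), IGFBP3 (0.00225) and ANGPTL4 (0.00311), all 3 with the larger induction in control cells. The difference was above 0 in 68.3% of all genes. The genes named here were chosen on the control response, which by itself leans their difference to the control side. The lowest adjusted p among the genes described here was that of SLAMF9, whose log2 fold change was 5.27 in control and 1.63 in siOC2 cells (difference 3.64, unadjusted p = 3.09e-05, limma adjusted p = 0.377 without the siRNA term). SLAMF9 had 3.34 and 3.21 RPKM in siOC2 normoxia and 8.64 and 12.3 RPKM in siOC2 hypoxia, so that it was higher than in control cells in normoxia and lower in hypoxia. TREM1 went the same way, with 11.8 and 10.4 RPKM in siOC2 normoxia and 15.9 and 33.6 RPKM in siOC2 hypoxia (difference 2.77, limma adjusted p = 1). ANGPTL4 had 3.21 and 4.58 RPKM in siOC2 normoxia and 25.2 and 46.9 RPKM in siOC2 hypoxia, a log2 fold change of 3.13 (difference 3.14, limma adjusted p = 1 without the siRNA term). CA9, NDRG1 and MTRNR2L11 had log2 fold changes of 4.89, 3.58 and 3.84 in siOC2 cells, against 6.07, 4.26 and 4.26. The count of 115 differing genes became 1529 without siOC2 hypoxia library 2, 303 without siOC2 normoxia library 2 and 256 without siOC2 hypoxia library 1, and 52 and 47 without hypoxia library 2 or normoxia library 1 of the control cells.

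LNCaP cells, an androgen-dependent line from a lymph node metastasis, were measured in a separate table, so only fold changes are compared. Hypoxia induced 688 genes (5.6%) and lowered 288 (2.34%) in EV LNCaP cells, of which 660 (5.37%) and 271 (2.21%) passed an adjusted p below 0.05 in limma. Of the PC3 genes, 223 induced and 177 lowered were also tested in LNCaP. Among the 223, 197 were above 0, 172 had both hypoxia libraries above both normoxia libraries (37.1% of all LNCaP genes did) and 108 were called induced, which is 48.4% of them and 15.7% of the LNCaP calls. Among the 177, 119 were below 0, 85 had both hypoxia libraries below both normoxia libraries (32.4% of all did) and 15 were called lowered, which is 8.47% of them and 5.21% of the LNCaP calls. Calls in the opposite direction were 3 and 7, and MT-ATP6 and MT-ATP8 among the 7 are listed at 0 in both EV normoxia libraries. In control PC3, siOC2 PC3 and EV LNCaP cells alike, 56 genes were called induced and 4 lowered. The 56 include 11 of the glycolysis list: SLC2A1, SLC2A3, HK2, PFKFB3, PFKFB4, ALDOC, PGK1, ENO1, ENO2, LDHA and PDK1. They also include EGLN1, EGLN3 and CITED2 among the oxygen sensors, BNIP3, BNIP3L, NDRG1, BHLHE40, MXI1, KDM3A, P4HA1, PLOD2, LOX, CA9, STC1, IGFBP3, CXCR4 and SCNN1G. The 4 lowered in common were MT-ND2, the immunoproteasome subunit PSMB9, SDSL and the amino acid transporter SLC43A1.

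Several of the strongest PC3 responses could not be compared in LNCaP cells. ANGPTL4 and ADM did not reach the level for testing in LNCaP cells, at 0.598 and 0.401 RPKM for ANGPTL4 and 0.271 and 0.0982 RPKM for ADM in normoxia and at most 0.734 RPKM for either in hypoxia. SLAMF9 and TREM1 were not tested there either. PLOD2 and STC1 had larger log2 fold changes in LNCaP (6.24 and 5.41) than in control PC3 cells (2.11 and 2.96), a difference between tables that was not tested. SPARC, a matrix glycoprotein, was lowered in control PC3 cells (log2 fold change -1.38) and higher in LNCaP cells (1.65), and the integrin chain ITGA2 was induced in PC3 (1.19) and lower in LNCaP (-1.27). Both were looked up after the calls were seen.

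**Figure D4:**
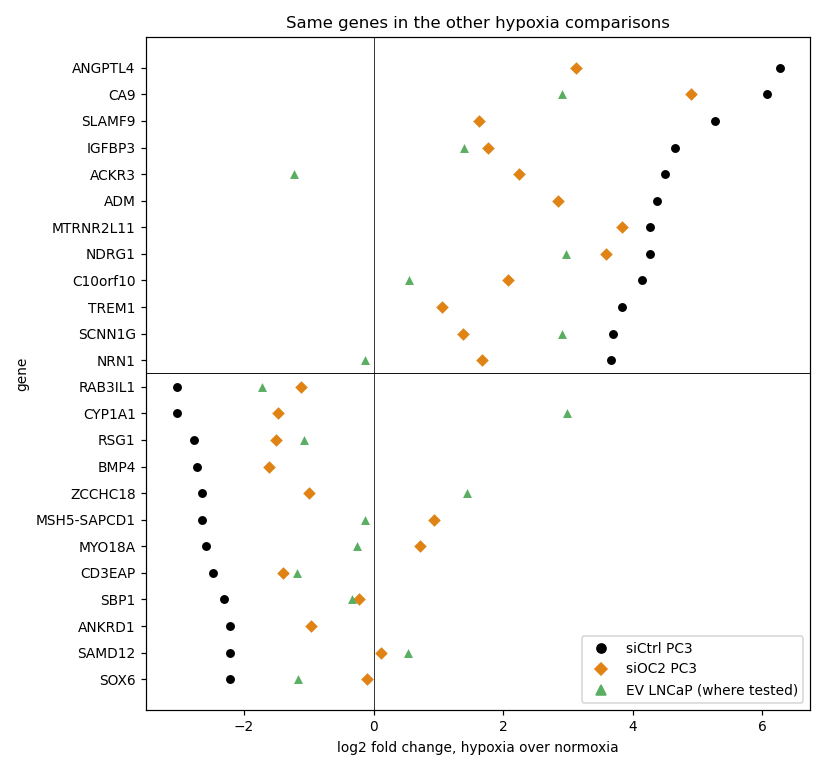
Log2 fold change of hypoxia over normoxia (x axis) in control PC3 (black circles), siOC2 PC3 (orange diamonds) and EV LNCaP cells (green triangles, where tested) for the 24 genes chosen by their size in control PC3 cells. The 12 induced genes were all above 0 in siOC2 cells, from 1.06 for TREM1 to 4.89 for CA9, and ACKR3, NRN1, CYP1A1, ZCCHC18 and SAMD12 lie on opposite sides of 0 in PC3 and LNCaP cells.

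The calls depend on which libraries estimate the spread. When only the 4 siCtrl libraries entered the model, 374 genes were induced and 404 lowered, among them all 272 and all 199 above, of which 319 and 257 had a limma adjusted p below 0.05. Leaving out hypoxia library 2, normoxia library 1 or normoxia library 2 gave 87, 114 and 113 lowered genes.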

How the data were processed

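RNA-Seq was made from polyadenylated RNA with a stranded kit, and per the labels reads were aligned with STAR 2.4.2a to hg19 (GRCh37) and quantified with Cufflinks 2.1.1. The authors deposited RPKM per gene symbol, a table for each cell line. Read counts were not used here, so that counting error is not modelled, and the relative depth was estimated from steps in low RPKM. Genes at 1 RPKM or more in 2 or more libraries of a table were kept. log2(RPKM + 0.1) was fitted in limma 3.58.1 (R 4.3.3) over all 8 libraries of a cell line, with a mean-variance trend and empirical Bayes, and p-values were adjusted by Benjamini-Hochberg over all genes tested. Fold changes are on this scale and understate the change of low genes. Genes that changed more than 2-fold with an unadjusted p below 0.05 were called. The fit was tested on simulated data.

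Named genes were the 12 induced and 12 lowered genes of largest fold change that were called, did not overlap between conditions, had a mean of 1 RPKM in the higher group, no exact 0 and no clone name. To these were added the called and most abundant genes of 30 lists (465 symbols) and the 8 genes of lowest adjusted p. The members and lists were chosen with earlier results of these data known, and 6 further lists were made after the values were seen. Gene positions come from GENCODE for GRCh37, and promoters from RefSeq on GRCh38.p14. Alternatives were a filter of 5 RPKM or none, a pseudocount of 1, exact 0 as missing, upper quartile scaling, a fit to 4 libraries, a replicate block, the siRNA as a term within the siOC2 libraries (whose numbers pair them by siRNA) and leaving out each library. The 12 ChIP samples were not analysed here. Some genes are not reported here.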

Additional observations from a re-analysis of the deposited data

Results flagged for a closer look

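Genes among those of largest change in control PC3 cells were set apart where every library moved one way in control PC3 cells and the opposite way in another cell group. In LNCaP cells with the empty vector the difference from PC3 cells was not tested, since the tables were normalised separately. ACKR3, induced in PC3 cells, had a log2 fold change of -1.22 in LNCaP cells, from 57.3 and 73.7 RPKM in normoxia to 28.5 and 27.2 RPKM in hypoxia. NRN1, also induced in PC3 cells, had -0.13 there, a shift smaller than the distance between its normoxia libraries, at 13.1 and 15 RPKM and then 13 and 12.5 RPKM. CYP1A1, lowered in PC3 cells, had 2.98 in LNCaP cells, from 1.36 and 1.52 RPKM to 13.3 and 10.9 RPKM. SAMD12, also lowered in PC3 cells, had 0.53, from 5.25 and 5.59 RPKM to 7.14 and 8.63 RPKM. MSH5-SAPCD1 had a log2 fold change of 0.94 in siOC2 PC3 cells against -2.64 in control cells, and the test of that difference gave -3.58 (unadjusted p = 0.0248, limma adjusted p = 1). Its control value was -1.37 without hypoxia library 2, -2.70 and -2.58 without normoxia library 1 or 2 and -0.99 with a pseudocount of 1, and not called in any of these.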

How the results depend on the processing

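The number of induced genes in control PC3 cells, 272, stayed within 1.5 times under the alternatives tried, at 191 to 374, apart from the adjusted p, which left 33. The 199 lowered genes became 103 with a filter of 5 RPKM, 404 in the fit to 4 libraries, 101 with a pseudocount of 1 and 0 by adjusted p, and 87 to 251 without single libraries. The 115 genes with a different response in siOC2 cells became 64 with that filter, 282 without a filter and 0 by adjusted p, and 47 to 1529 without single libraries. In LNCaP cells the 288 lowered genes became 143 with the filter, 439 without one and 134 with a pseudocount of 1, and 280 to 435 without single libraries, the latter without normoxia library 1. The cause was not tested, except that a filter changes the genes tested and the smaller fits have fewer libraries. With the replicate number as a block, 320 genes were induced and 242 lowered (66 and 2 by adjusted p, BMP4 and SAMD12 at 0.0171 and 0.0469), and 129 differed between siCtrl and siOC2 cells. With the siRNA as a replicate block within the siOC2 libraries, added after seeing the data, the lowered genes became 382 and the differing genes 380. Same-numbered control libraries did not deviate together (correlation -0.186). Since each number joins a deep and a shallow library, this correlation cannot tell whether they were paired. The crossed pairing, added after seeing the data, gave 298 and 216. Of 331 values of named genes under an alternative, 302 kept direction and call and 29 kept direction but lost the call. These counts overstate how stable the calls are. The named genes were chosen as called and without overlap, which fixes their direction when a library is left out. Blocks leave the fold changes as they are, and exact 0 as missing could hardly act on genes without an exact 0. In those settings all 26 named genes kept the call, against 22 with a pseudocount of 1. The medians of 11 lists, all near 0, changed sign in 23 settings. Depth limits the low genes, most of all in the shallow libraries, normoxia 1 and hypoxia 2.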

Other observations

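Insulin-like growth factor binding proteins, in a list made after the values were seen, were higher in hypoxia in all 5 members tested, and IGFBP3 and IGFBP5 were called. IGFBP5 rose from 1.69 and 3.02 RPKM in normoxia to 16.4 and 11.2 RPKM in hypoxia (log2 fold change 2.53). Other genes were picked for their level or fold after their values were seen. INHA, the inhibin alpha subunit, rose from 0.539 and 0.355 RPKM to 3.3 and 2.98 RPKM (log2 fold change 2.58), and it overlaps the induced gene OBSL1. NOX5, a calcium-activated oxidase that makes superoxide, rose from 43.5 and 46.2 RPKM to 183 and 146 RPKM (log2 fold change 1.87). CYR61, a matrix protein that is a known target of the YAP coactivator like ANKRD1, fell from 65.1 and 69.6 RPKM to 25.7 and 26 RPKM (log2 fold change -1.38). NDUFS8, a subunit of respiratory complex I outside the list used above, fell from 119 and 127 RPKM to 57.3 and 62.8 RPKM (log2 fold change -1.03). S100A10, which joins annexin A2 at the membrane, rose from 266 and 337 RPKM to 646 and 607 RPKM (log2 fold change 1.06).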
